A study of Mus musculus with 6 samples.

Results

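The 10 genes described here encode enzymes that make prostaglandins and receptors that sense them. They comprise 5 synthases (Ptgs1, Ptgs2, Ptges, Ptgis and Ptgds) and 5 receptors (Ptger1, Ptger2, Ptger3, Ptger4 and Ptgfr), chosen by name through the transcript accession of each probe set. All 10 were found, each with 1 probe set, among 17331 genes with a symbol. They were measured in MC3T3-E1 cells, an established preosteoblast line from mouse calvaria, at passages 5 to 12. The differentiated group (3 arrays) had been kept for 15 days in alpha MEM with 10% serum, 10 mM glycerol-2-phosphate and 50 ug/mL ascorbic acid. The undifferentiated group (3 arrays) grew in the same medium without those supplements, and both groups received ethanol vehicle for 24 h. Supplements, differentiation and the ending of the array image names differ together between the groups and cannot be told apart. Time in culture is given for the differentiated group alone, so it may differ as well.

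Prostaglandins are lipid signals made from arachidonic acid, which phospholipases release from membranes. The cyclooxygenases COX-1 (Ptgs1) and COX-2 (Ptgs2) convert it to a common intermediate, and terminal synthases turn that into prostaglandin E2, prostacyclin, prostaglandin D2 or other products. COX-1 is usually made at a steady level, whereas COX-2 is an immediate early gene that hormones, cytokines and mechanical load induce. In bone, prostaglandin E2 from osteoblasts acts on both bone formation and bone resorption.

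Ptgs2 was the 1 member whose difference passed the threshold given below. The DNA around its start is therefore shown first, beside that of the other cyclooxygenase gene. The sequences are from RefSeq on GRCm38.p6 and run from 250 bases before to 25 bases after the annotated start, chr1:150099781-150100055 on the plus strand for Ptgs2 and chr2:36230176-36230450 on the plus strand for Ptgs1. Capitals mark any match to 6 motifs searched on both strands.
Ptgs2: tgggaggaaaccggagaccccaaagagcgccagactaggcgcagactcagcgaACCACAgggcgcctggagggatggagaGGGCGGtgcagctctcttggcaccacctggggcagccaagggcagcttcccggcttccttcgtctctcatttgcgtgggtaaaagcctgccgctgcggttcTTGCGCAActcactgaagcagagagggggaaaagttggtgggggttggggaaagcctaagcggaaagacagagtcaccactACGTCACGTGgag
Ptgs1: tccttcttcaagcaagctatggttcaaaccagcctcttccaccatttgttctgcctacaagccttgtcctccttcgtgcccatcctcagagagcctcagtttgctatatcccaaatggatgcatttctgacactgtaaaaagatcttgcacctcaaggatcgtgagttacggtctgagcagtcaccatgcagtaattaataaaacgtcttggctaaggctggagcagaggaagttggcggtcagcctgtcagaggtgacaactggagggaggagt

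The motifs were chosen with the Ptgs2 sequence in view, so their presence in it is a description. From the annotated start, the Ptgs2 window held the RUNX letters TGTGGT on the minus strand at -197 to -192 and the GC box GGGCGG at -170 to -165. It held the C/EBP letters TTGCGNAA at -69 to -62. The CRE half-site ACGTCA at 13 to 18 overlapped the E-box CACGTG at 17 to 22. These positions count from the annotated start alone, and where transcription starts in these cells was not measured. Bases more than 25 after that start were not searched for any motif. Of 32851 windows of this length in the table, 15.3% held the RUNX letters, 34.4% the GC box, 0.752% the C/EBP letters, 7.17% the CRE half-site and 6.68% the E-box. The sixth motif, TATAAA, was in 4267 of these windows and in none of the 8 member windows that the table held. The Ptgs1 window held 0 of the 6 motifs, which says only that these letters are not in it. The GC box was in the windows of Ptger3, Ptger4, Ptges, Ptgfr and Ptgs2, and the other 4 motifs found were in that of Ptgs2 alone among the 8.

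All values below are log2 intensities after the 6 arrays were quantile normalized together, unless deposited units are named. Each difference is the differentiated mean minus the undifferentiated one. Calls were made at an adjusted p under 0.05 over 41938 entries of the array (limma, Benjamini-Hochberg), each entry a gene or an unnamed probe set. A row of random-sequence control probes served as the background level. It read 6.69 to 6.73 on the differentiated arrays and 6.73 to 6.80 on the undifferentiated arrays. Of 1068 olfactory receptor genes on the array, 792 (74.2%) lay above that row on all 6 arrays, so a reading above it does not show that a gene is expressed. The precision is limited by the number of arrays, and no levels are compared between different genes. The labels call the samples biological triplicates. Undifferentiated replicate 3 lay farthest from its group, with a root mean square deviation of 0.208 over all entries. The other arrays lay between 0.0820 and 0.154.

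Of the 10 genes, 1 was called lower in differentiated cells, 0 were called higher and 9 did not pass. Over all entries 17.0% were called, 7.97% higher and 9.04% lower, so 1 call in 10 genes is near the background. Among genes with a symbol, 8.67% were called higher, 8.16% lower and 2.65% in either direction with at least a 2-fold change. The median difference of the 10 genes was 0.03, against 0.00 over all entries. The groups did not overlap for Ptgs2, Ptgis and Ptger4, and they did not overlap for 35.4% of all entries and 34.8% of genes with a symbol. With 3 arrays against 3, an exact two-sided permutation test of a single gene cannot go below 0.10, the value these 3 genes reached.

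**Figure D1:**
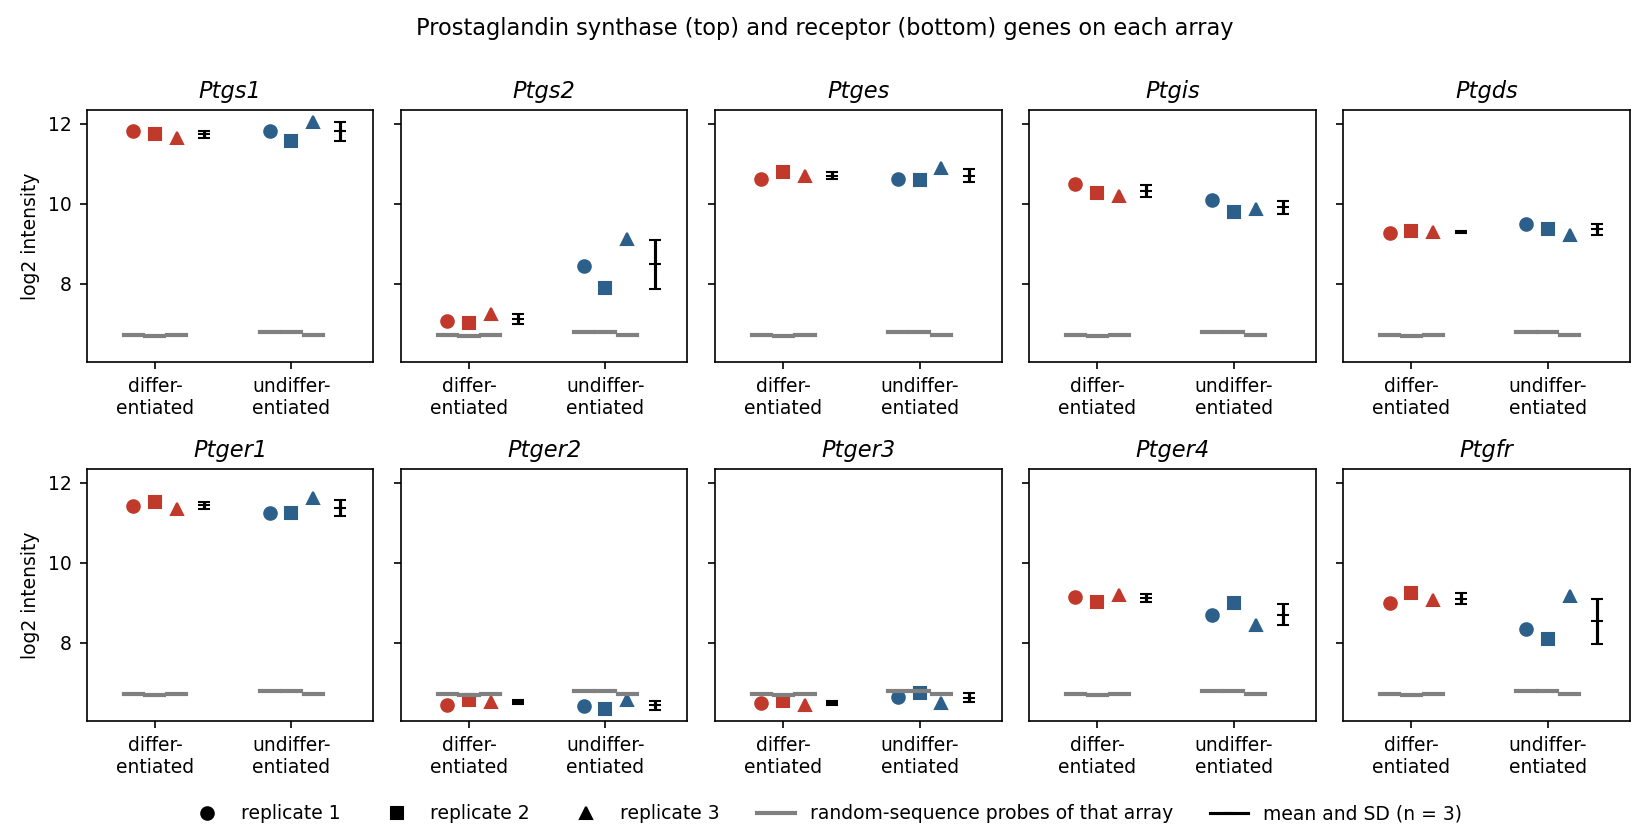
Log2 intensity of the 5 synthase genes (top) and the 5 receptor genes (bottom) on each array, differentiated left and undifferentiated right, with the random-sequence probes of each array as grey bars and the mean and SD of 3 arrays in black. The 3 differentiated Ptgs2 readings, 7.02 to 7.25, sit just over the grey bars and under all 3 undifferentiated readings, and Ptger2 and Ptger3 lie at or under the grey bars.

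Ptgs2, the inducible cyclooxygenase, fell in differentiated cells to a level close to the random-sequence probes. It read 7.08, 7.02 and 7.25 on differentiated replicates 1, 2 and 3, against 8.45, 7.89 and 9.12 on undifferentiated replicates 1, 2 and 3. All 3 differentiated arrays were below the lowest undifferentiated array, and the undifferentiated arrays were far apart among themselves. In deposited units these readings were 140, 131 and 149 on the differentiated arrays, against 354, 242 and 528 on the undifferentiated arrays. The random-sequence row stood at 109, 104 and 105 units on the differentiated arrays and at 113, 114 and 101 units on the undifferentiated arrays. The mean was 7.12 ± 0.12 in differentiated and 8.49 ± 0.62 in undifferentiated cells (SD, n = 3 each). The log2 difference was -1.37 ± 0.26 SE (95% confidence interval -1.96 to -0.77; limma adjusted p = 0.00872), a 2.58-fold lower level.

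The Ptgs2 call held when any 1 array was left out, with differences of -1.67 to -1.05 and adjusted p values (limma) of 0.00136 to 0.0447. It held in all 20 alternative settings in which the gene was tested. Some of these settings could hardly differ from the reported fit for this gene. Examples are the authors' value table and, as Ptgs2 has 1 probe set, the ways of combining probe sets. The stricter threshold of 0.01 used the reported fit itself. The Ptgs2 level was too low for it to be tested once the dimmest 25% or 50% of entries were dropped. The differentiated mean stood 0.40 above the random-sequence row, so the size of the fall is uncertain. In a bulk culture, fewer cells that carry the transcript and less of it per cell cannot be told apart.

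Ptgs1, the constitutive cyclooxygenase, differed by less than the spread between arrays. It read 11.81, 11.73 and 11.65 on the differentiated arrays and 11.81, 11.56 and 12.04 on the undifferentiated arrays. The differentiated readings lay within the undifferentiated range. Its difference was -0.07 (95% confidence interval -0.37 to 0.22; limma adjusted p = 0.761), an interval that leaves out a change as large as that of Ptgs2.

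Ptges encodes the inducible microsomal prostaglandin E synthase, which often works with COX-2. Its readings were 10.61, 10.78 and 10.70 on the differentiated arrays, against 10.61, 10.60 and 10.88 on the undifferentiated arrays. The differentiated readings lay within the wider undifferentiated range, with a difference of 0.00 (95% confidence interval -0.25 to 0.25; limma adjusted p = 0.994). Ptgds, the lipocalin-type prostaglandin D synthase, read 9.27, 9.33 and 9.30 on the differentiated arrays and 9.49, 9.38 and 9.22 on the undifferentiated arrays. It too overlapped between the groups, with a difference of -0.06 (-0.29 to 0.17; limma adjusted p = 0.745).

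Ptgis, the prostacyclin synthase, came closest to the threshold among the genes that did not pass. It read 10.49, 10.27 and 10.20 on the differentiated arrays, against 10.09, 9.79 and 9.86 on the undifferentiated arrays. The lowest differentiated reading was above the highest undifferentiated one. The difference was 0.41 ± 0.12 SE (95% confidence interval 0.13 to 0.68; limma adjusted p = 0.0510). Leaving out undifferentiated replicate 1 raised the difference to 0.49 with a call (limma adjusted p = 0.0451). Leaving out any other single array gave no call, and without differentiated replicate 1 the difference was 0.32 (limma adjusted p = 0.168). Ptgis was called in 9 of 22 alternative settings in all, and its difference was positive in each of the 22.

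Among the receptors, none passed. Ptger1 encodes EP1, which signals through calcium. It read 11.43, 11.53 and 11.34 on the differentiated arrays and 11.24, 11.25 and 11.61 on the undifferentiated arrays. Undifferentiated replicate 3 held the highest reading and the other 2 undifferentiated arrays the lowest, so the groups overlapped, with a difference of 0.06 (95% confidence interval -0.22 to 0.34; limma adjusted p = 0.780).

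Ptger4 encodes EP4, which raises cyclic AMP through Gs and is a main receptor for the anabolic effect of prostaglandin E2 in rodent bone. It read 9.14, 9.02 and 9.20 on the differentiated arrays, against 8.70, 8.99 and 8.44 on the undifferentiated arrays. The groups did not overlap, by a gap far smaller than the undifferentiated range. The difference was 0.41 ± 0.14 SE (95% confidence interval 0.09 to 0.73; limma adjusted p = 0.0820). Without undifferentiated replicate 2 it was 0.55 and passed (adjusted p = 0.0268).

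Ptgfr encodes FP, the receptor for prostaglandin F2alpha. It read 8.996, 9.25 and 9.06 on the differentiated arrays, against 8.36, 8.10 and 9.18 on the undifferentiated arrays. The third undifferentiated reading fell inside the differentiated range and the other 2 were well below it. The difference was 0.56 ± 0.24 SE (95% confidence interval 0.01 to 1.11; limma adjusted p = 0.160). Without undifferentiated replicate 3 it was 0.88 and passed (adjusted p = 0.000844). Without undifferentiated replicate 2 it was 0.34 (adjusted p = 0.390), so single arrays decided both its size and its call.

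Ptger2 encodes EP2, the other Gs-coupled receptor for prostaglandin E2, and Ptger3 encodes EP3, which lowers cyclic AMP through Gi. Ptger2 read 6.46, 6.57 and 6.54 on the differentiated arrays and 6.42, 6.35 and 6.56 on the undifferentiated arrays. Ptger3 read 6.51, 6.55 and 6.45 on the differentiated arrays and 6.66, 6.75 and 6.50 on the undifferentiated arrays. Both genes lay below the random-sequence row on all 6 arrays, so no fold is given and neither could be measured here.

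**Figure D2:**
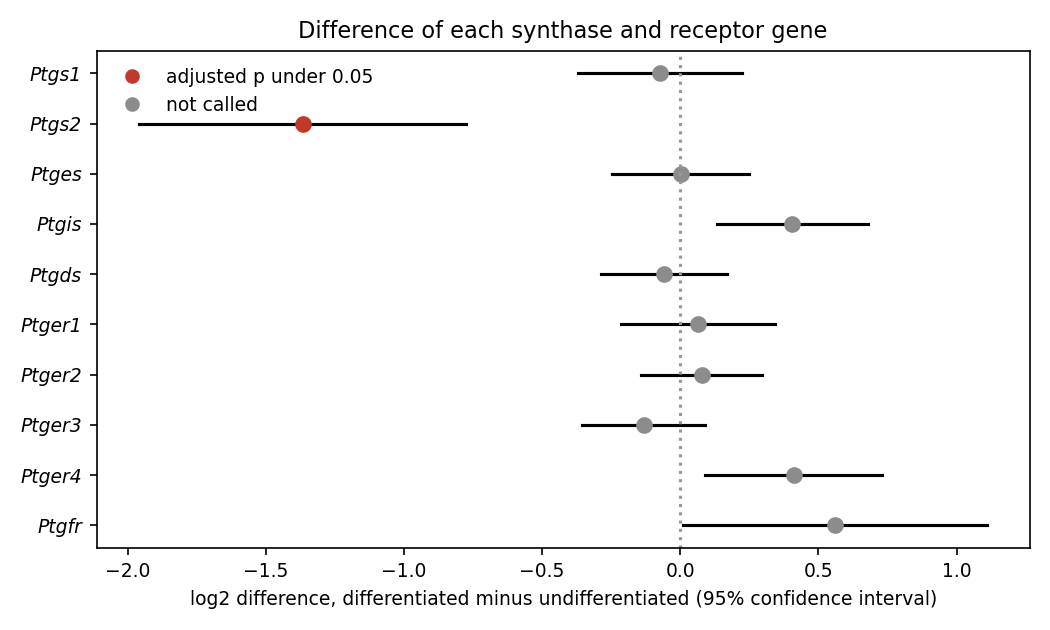
Log2 difference, differentiated minus undifferentiated, with its 95% confidence interval for each of the 10 genes (3 arrays per group). Ptgs2 stands at -1.37 and is the 1 gene called; the intervals of Ptgis, Ptger4 and Ptgfr lie above 0 without passing after adjustment over all entries.

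Undifferentiated arrays varied more than differentiated ones for all 10 genes, and for 65.6% of genes with a symbol. Undifferentiated replicate 3 was the highest array of its group for 6 of the 10 genes and the lowest for 3. The count of members called stayed at 1 without any single differentiated array. It was 2 without undifferentiated replicate 1, 2 or 3, each time Ptgs2 and 1 more gene, which was Ptgis, Ptger4 and Ptgfr in that order.

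**Figure D3:**
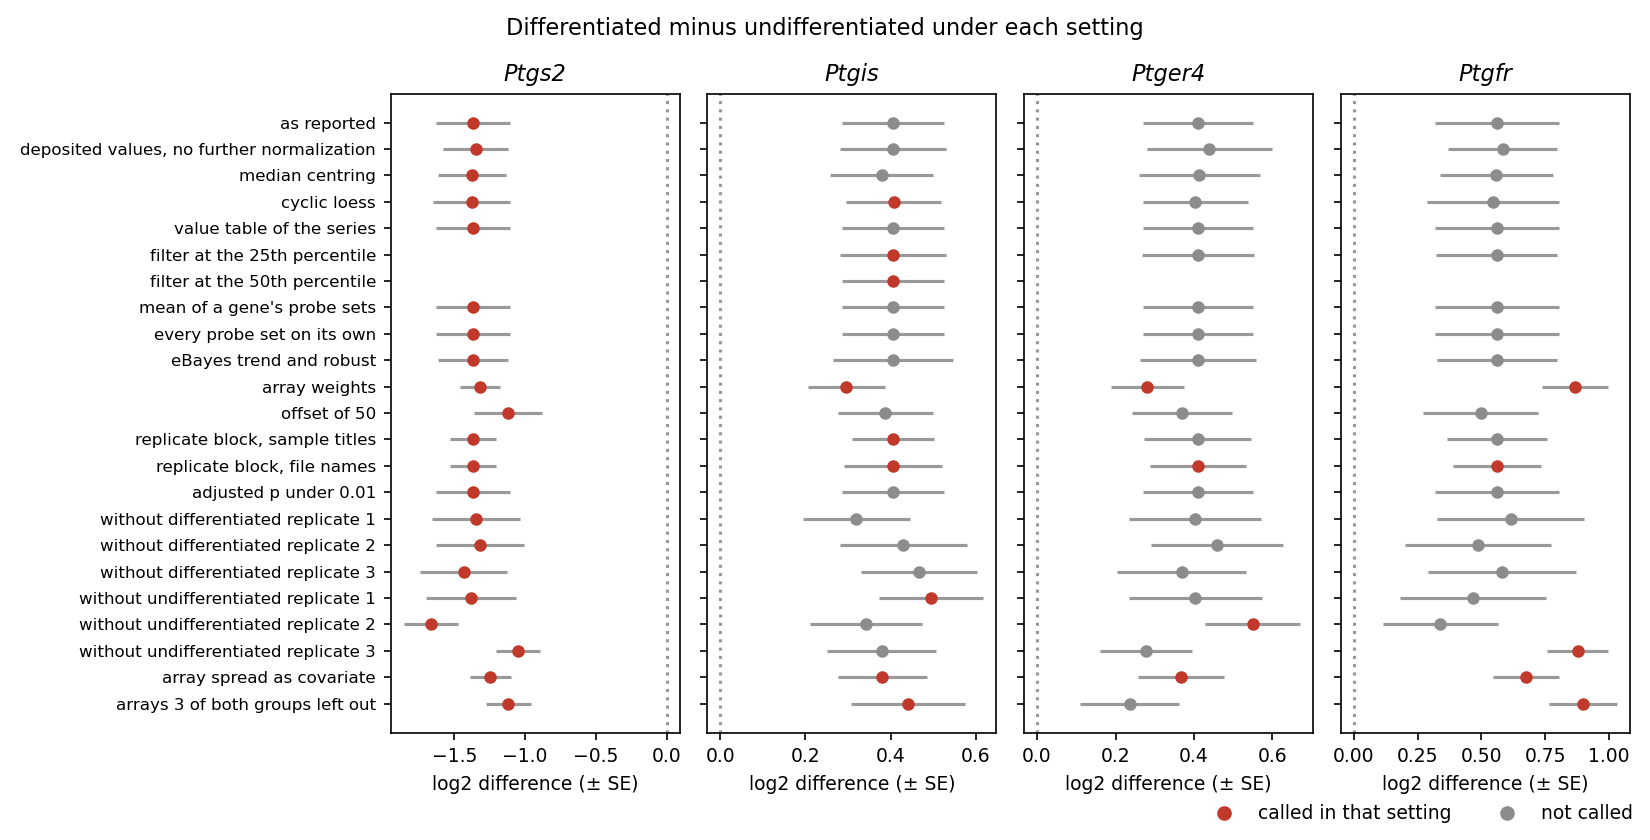
Log2 difference and its standard error for Ptgs2, Ptgis, Ptger4 and Ptgfr under each processing setting, red where called and grey where not. Ptgs2 stays between -1.67 and -1.05 and is red in each setting in which it was tested; the other 3 genes stay above 0 and change colour.

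The genes with a centred pattern over the 6 arrays closest to Ptgs2 were Olfr1318, Ammecr1 and Bnc2, out of 17331. Their root mean square differences from it were 0.142, 0.150 and 0.171 on the log2 scale. All 3 were lower in differentiated cells, with log2 differences of -1.41, -1.34 and -1.12. Likeness over 6 arrays in 2 groups says little about single genes.

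Most genes listed for the release of arachidonic acid, not all of them enzymes, were not called. Among 22 measured genes of phospholipases A2 and lipid release, 3 were higher and 1 was lower in differentiated cells. The other 18 were not called, and the median difference was -0.01. These 4 calls in 22 genes are near the 17.0% of all entries. Pla2g4a, the cytosolic phospholipase A2 that supplies the cyclooxygenases, read 12.94, 12.88 and 12.99 on the differentiated arrays, against 13.28, 13.32 and 13.47 on the undifferentiated arrays. It fell by 0.42 on the log2 scale (limma adjusted p = 0.0178) with no overlap. Plaat3, a phospholipase first known from adipose tissue, read 10.37, 10.77 and 10.999 on the differentiated arrays and 9.31, 9.31 and 9.28 on the undifferentiated arrays. It rose 2.66-fold (limma adjusted p = 0.000481), and every differentiated array was well above the undifferentiated ones.

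The lysosomal Pla2g15 rose 1.42-fold and the secreted pancreatic-type Pla2g1b rose 1.36-fold (limma adjusted p = 0.0131 and 0.0182). The calls of Pla2g4a and Pla2g15 were lost without differentiated replicate 1 or 2, with adjusted p up to 0.0998 and 0.0725. That of Pla2g1b was lost without any 1 array except undifferentiated replicate 3 (adjusted p up to 0.0905). Without differentiated replicate 1 or 2 the list had 1 gene higher and 0 lower, and Plaat3 passed without each array in turn.

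Other prostanoid enzymes, carriers and receptors mostly did not pass. None of 10 other synthases and reductases passed (median difference 0.03), among them Ptges3, the cytosolic prostaglandin E synthase and Hsp90 co-chaperone, with a difference of -0.23 (95% confidence interval -0.44 to -0.03; limma adjusted p = 0.113). Gstm2, a glutathione transferase, had a difference of 0.05. Without undifferentiated replicate 1, 1 gene of that list was called higher. None of 8 other prostanoid receptors and partners passed (median difference 0.02), among them Ptgfrn, a membrane protein that binds FP, at 0.02 (-0.27 to 0.31), and the nuclear receptor Ppard at -0.03.

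Of 6 measured genes of prostaglandin transport and inactivation, Abcc4, an exporter of prostaglandin E2, fell and 5 did not pass (median difference 0.02). This 1 call in 6 genes is near the 17.0% called over all entries. Abcc4 read 8.53, 8.66 and 8.86 on the differentiated arrays, against 9.01, 9.01 and 9.17 on the undifferentiated arrays, which did not overlap. Its difference was -0.38 (limma adjusted p = 0.0497), a call lost without any 1 array except differentiated replicate 3, with adjusted p up to 0.175. It was also lost with the deposited values, median centring, cyclic loess, an eBayes trend or an offset of 50. Without differentiated replicate 1, or without undifferentiated replicate 3, 1 gene of this list was called higher and 0 lower.

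In the lipoxygenase branch, which also uses arachidonic acid, 2 of 16 genes were higher in differentiated cells and 1 was lower (13 not called, median difference 0.03), near the 17.0% called over all entries. Alox5ap, the protein that presents arachidonic acid to 5-lipoxygenase, read 11.68, 11.63 and 11.65 on the differentiated arrays, against 12.75, 12.97 and 12.49 on the undifferentiated arrays. It fell by 1.08 on the log2 scale (limma adjusted p = 0.000790), with all differentiated arrays below all undifferentiated ones. Lta4h, leukotriene A4 hydrolase, read 11.85, 12.10 and 12.19 on the differentiated arrays and 11.13, 11.33 and 11.48 on the undifferentiated arrays. It rose 1.66-fold (limma adjusted p = 0.00609), and both calls held without each array in turn. Cyp4f13, a cytochrome P450 of a family that hydroxylates eicosanoids, rose 1.40-fold (limma adjusted p = 0.0199). That call was lost without differentiated replicate 2 or undifferentiated replicate 1 (adjusted p up to 0.104), each of which left 1 gene higher.

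**Figure D4:**
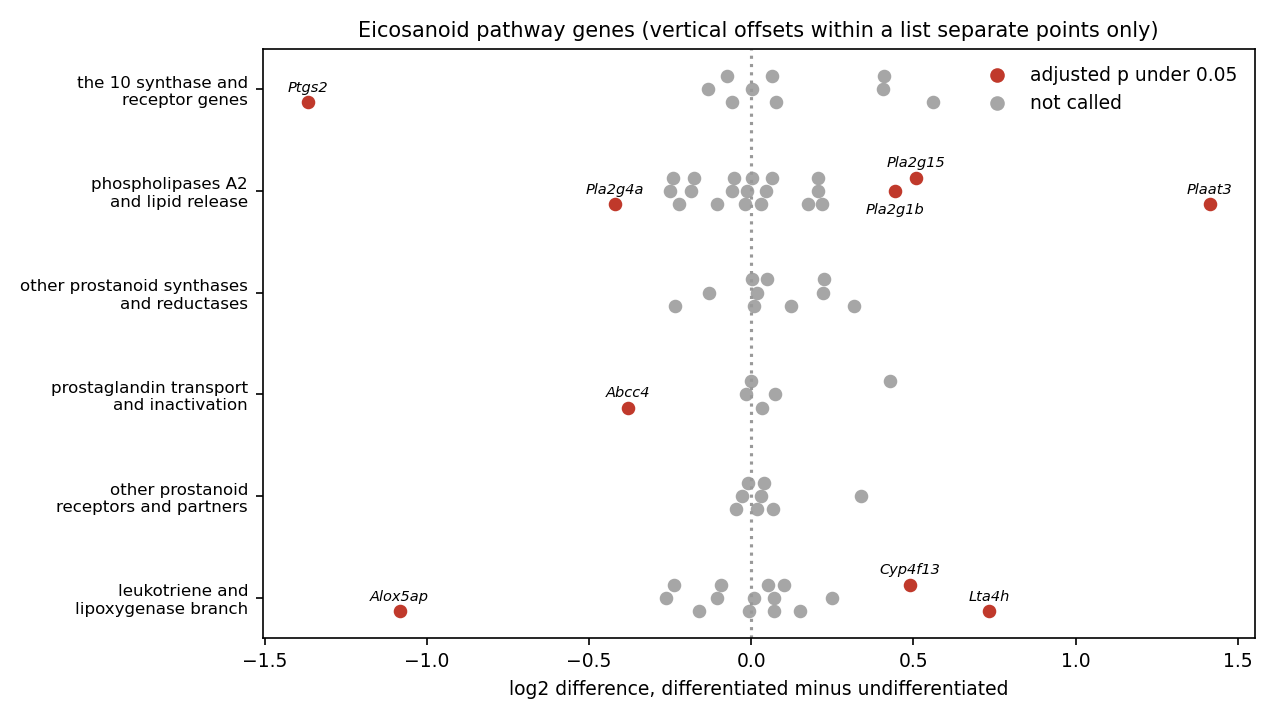
Log2 difference, differentiated minus undifferentiated, of each measured gene of the 10 members and of 5 wider eicosanoid lists (1 point per gene), red and named where called. Most points lie near 0; Ptgs2 and Alox5ap stand farthest to the left and Plaat3 farthest to the right.

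Over the 5 wider eicosanoid lists together, 8 of 62 measured genes were called, 5 higher and 3 lower, against 17.0% of all entries. The count was 5 without differentiated replicate 1 and 3 without differentiated replicate 2. The lists were chosen with earlier results of these data known.

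Most of the receptors' coupling partners were not called. Of 29 genes for G protein subunits, adenylyl cyclases, phospholipase C and related partners, 2 were higher and 4 lower in differentiated cells (23 not called, median difference -0.02). Over all entries, 7.97% were called higher and 9.04% lower. Adcy7, an adenylyl cyclase that makes cyclic AMP downstream of Gs, rose 1.54-fold, and Adcy9 rose 1.43-fold (limma adjusted p = 0.0196 and 0.0359). Plcb3, a phospholipase C that Gq activates, fell by 0.61 on the log2 scale and Gna12, a G protein alpha subunit, by 0.50 (limma adjusted p = 0.00568 and 0.00926). The other 2 that fell, named after their values were seen, were Plcb1 at -0.44 and Gna11 at -0.32 (limma adjusted p = 0.0175 and 0.0380). The calls of Adcy7 and Adcy9 were lost without differentiated replicate 2 or 3 or undifferentiated replicate 1 or 2, and that of Adcy9 also without differentiated replicate 1, with adjusted p up to 0.0963 and 0.143. Median centring ended both calls, the deposited values without further normalization ended that of Adcy9, and the mean of its probe sets ended that of Adcy7. Plcb1 was lost without differentiated replicate 2 or 3 or undifferentiated replicate 1 or 2 (adjusted p up to 0.0957). Gna11 was lost without any 1 array except undifferentiated replicate 3 (adjusted p up to 0.118), and with the deposited values, median centring, an eBayes trend or both arrays numbered 3 left out. The counts were then 1 higher and 3 lower without differentiated replicate 1, and 0 higher and 2 lower without differentiated replicate 2 or 3 or undifferentiated replicate 1. They were 0 and 3 without undifferentiated replicate 2, and 4 and 4 without undifferentiated replicate 3.

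Ptgs2 is itself a gene that cyclic AMP induces, and 32 other genes known to respond to cyclic AMP or prostaglandins were read beside it. Of these, 13 were higher and 4 lower in differentiated cells (15 not called). Their median difference was 0.25, against 0.00 over all entries. Of all entries, 7.97% were called higher and 9.04% lower. Once the dimmest 50% of entries were dropped, 2825 of 20969 were called higher and 3295 lower. Of the 22 genes of this list then left, 9 were called higher and 4 lower. The list was chosen with earlier results of these data known, so its count is not independent evidence of a direction.

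Rgs2, an inhibitor of Gq signalling, read 10.06, 10.52 and 9.93 on the differentiated arrays, against 8.43, 8.61 and 8.41 on the undifferentiated arrays. It rose 3.23-fold (limma adjusted p = 0.000209). Dusp1, a phosphatase that turns off MAP kinases, read 10.74, 10.86 and 10.95 on the differentiated arrays, against 8.99, 9.17 and 9.43 on the undifferentiated arrays. It rose 3.14-fold (limma adjusted p = 8.24e-05). Neither gene overlapped between the groups. The parathyroid hormone receptor Pth1r and the growth factor Igf1 rose 3.23-fold and 2.89-fold (limma adjusted p = 3.63e-05 and 3.83e-05).

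The 4 genes of this list that fell were looked up after their values were seen. Has2, a hyaluronan synthase, read 9.26, 9.22 and 9.56 on the differentiated arrays and 10.54, 10.57 and 10.72 on the undifferentiated arrays, and it fell by 1.26 on the log2 scale (limma adjusted p = 0.000233). The AP-1 gene Junb and the kinase gene Sik1 fell by 0.68 and 0.55 on the log2 scale (limma adjusted p = 0.00701 and 0.00742). Sik1 was not called without differentiated replicate 2 (limma adjusted p = 0.0511). The cytokine Il6 fell by 0.34 on the log2 scale (limma adjusted p = 0.0394), at 6.84 in differentiated and 7.19 in undifferentiated cells, both close to the random-sequence probes. The Il6 call was lost without any 1 array except undifferentiated replicate 3 (adjusted p up to 0.150), and with the deposited values, median centring or an offset of 50. Without differentiated replicate 2 the list had 9 genes higher and 2 lower. Rgs2, Dusp1, Pth1r, Igf1 and Has2 passed without each array in turn.

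**Figure D5:**
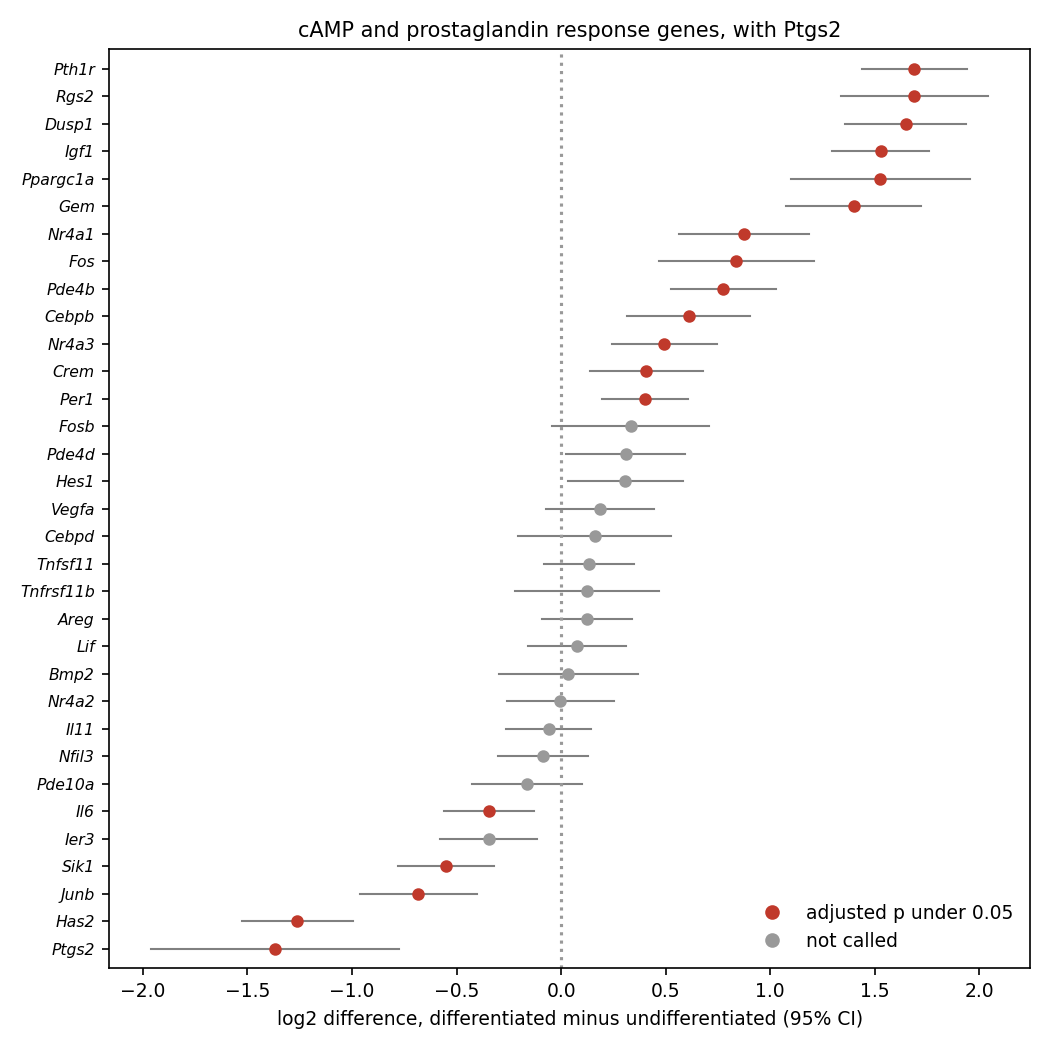
Log2 difference with its 95% confidence interval for 32 genes that respond to cyclic AMP or prostaglandins, and for Ptgs2, sorted by size and red where called. Ptgs2 has the lowest value of the plot, -1.37, next to Has2 at -1.26, and Pth1r, Rgs2 and Dusp1 are at the top, from 1.65 to 1.69.

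Genes known to induce or restrain Ptgs2 and Ptges in other settings were also read. Among the 22 on the array, 4 were higher and 3 lower in differentiated cells (15 not called, median difference 0.08). Over all entries, 7.97% were called higher and 9.04% lower. Il1r1, the signalling receptor for interleukin 1, a strong inducer of COX-2, read 10.55, 10.67 and 10.64 on the differentiated arrays, against 11.51, 11.29 and 11.34 on the undifferentiated arrays. It fell by 0.76 on the log2 scale (limma adjusted p = 0.00127). The interleukin 33 receptor Il1rl1 read 10.61, 11.09 and 11.33 on the differentiated arrays, against 13.03, 13.14 and 13.18 on the undifferentiated arrays, and it fell by 2.11 on the log2 scale (limma adjusted p = 0.000101). Its 2 probe sets disagreed in size: the dimmer one, tested on its own, had a difference of -1.12, and the mean of both had -1.61, each called. Tsc22d3, a mediator of glucocorticoid action, read 11.77, 11.86 and 11.74 on the differentiated arrays and 11.16, 10.87 and 11.12 on the undifferentiated arrays, a rise of 1.67-fold (limma adjusted p = 0.00225). None of these 3 genes overlapped between the groups, and each passed without each array in turn. Pth1r is on this list as well. Without differentiated replicate 2 the list had 2 genes higher and 2 lower, and without differentiated replicate 1 or 3 or undifferentiated replicate 1 or 2 it had 2 lower.

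Of 11 osteoblast markers, 5 rose in differentiated cells and 10 lay above the random-sequence row on all arrays of both groups. Of 38 markers of 6 other cell types, 35 (92.1%) also lay above it on all arrays. A reading above that row therefore does not tell these cell types apart. Alpl, the alkaline phosphatase of mineralizing osteoblasts, rose 8.10-fold (limma adjusted p = 4.87e-07), and the osteocyte matrix gene Dmp1 was 7.77-fold higher (limma adjusted p = 1.38e-05). Bglap, which encodes osteocalcin, rose 1.75-fold and the osteoblast transcription factor Sp7 rose 1.43-fold (limma adjusted p = 0.00450 and 0.00887), and Pth1r is the fifth. The other 6 were not called. Runx2, Col1a1, Col1a2, Spp1 and Ibsp had log2 differences of 0.02, 0.05, 0.04, -0.10 and 0.41. Phex lay below the random-sequence row on all 6 arrays. Over all entries, 7.97% were called higher and 9.04% lower, the shares to set beside the marker counts here. None of 9 macrophage, 7 mast cell, 4 megakaryocyte or 6 chondrocyte markers passed. Of 6 adipocyte markers 1 was lower, Adipoq, which encodes adiponectin, at -0.42 on the log2 scale (limma adjusted p = 0.0274). Of 6 endothelial markers 2 were higher, the angiopoietin receptor Tek by 2.81-fold and the adhesion molecule Pecam1 by 1.39-fold (limma adjusted p = 0.000815 and 0.0204), and both lay above the random-sequence row on all arrays. The summed endothelial markers stood at 2429 to 2503 units on the differentiated arrays and 1741 to 1980 units on the undifferentiated arrays. Cdh5 lay below the random-sequence row on all 6 arrays, and Tie1 on the 3 undifferentiated ones alone, while Kdr and Emcn lay above it on all 6. The Adipoq call was lost without differentiated replicate 1 or 2 or undifferentiated replicate 1, 2 adipocyte and 2 mast cell markers were lower without undifferentiated replicate 3, and Pecam1 was lost without differentiated replicate 1 or 2 or undifferentiated replicate 2. Tek passed without each array in turn. The part of such cells in the results above was not tested.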

How the data were processed

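NimbleGen arrays of 1 colour (Cy3) measured amplified RNA of each sample, per the labels' protocols. The deposited values are linear intensity values made by the authors with RMA, per the submitters' processing notes. The array design's build, RMA's software and whether arrays were run together are not given in the sources used here. Beside them the deposited files carry a standard error column of another, unstated scale, which was not used. The authors' value table of the series holds the same intensity values, with differentiated replicates 1 and 2 exchanged. Both are of 1 group. Replicate numbers here follow the sample titles, and the values are those of the per-array file listed for each sample.

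Of 42586 probe sets, 17849 were named by accession and 130 by symbol or synonym through RefSeq's table (17331 genes), and the brightest stood for a gene with several. Log2 values were quantile normalized, since the median gap between sorted arrays at matched ranks reached 0.135 for the farthest pair, over a limit of 0.02. The test was lmFit with eBayes (limma 3.58.1, R 4.3.3), two-sided and with no covariate, over 41938 entries. The code was tested on simulated data with independent noise and no outlying array, so that test says nothing of the effect of such an array. Titles share replicate numbers, and the same-numbered arrays' deviations correlated at 0.33, -0.14 and 0.46. By the numbers in the file names they correlated at -0.01, 0.43 and 0.46. Neither set was positive throughout, and arrays were not taken as paired. Fits with either numbering as a block are given at the end. The endings of the image names form 2 sets, each with arrays of 1 group. Whether these sets are batches is not stated. The random-sequence row's probes belong to 1 GC class by its name, and the GC content of the other probes was not used here.

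Members and lists were chosen with earlier results of these data known. Besides all members, the text names every called gene of a pathway or signalling list with 4 or fewer calls, the 4 largest changes of a list with more, and the 2 brightest of a list with none. The called markers of cell types were named after their values were seen. Genes of the lists that were not matched to the array are Pla2g4b, Pla2g2a, Ptgr3, Piezo1, Cd68 and Gp6.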

Additional observations from a re-analysis of the deposited data

How the results depend on the processing

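Directions of the 10 genes and counts of calls were recomputed under up to 22 alternatives. Ptgs2, the 1 member called, kept its direction and passed in the 20 that tested it, from -1.67 to -1.05 on the log2 scale. Some of those settings nearly repeat the reported fit. Among members not called, Ptgs1 kept its direction in 20 of 22 and Ptges in 17 of 22. Ptgds kept it in 20 of 21 and Ptger1 in 21 of 22, and the remaining members kept theirs in every setting that tested them. Leaving out 1 array gave 3141 to 9391 calls over all entries against 7135, 1 to 2 among the members against 1, 3 to 8 among the 62 wider eicosanoid genes against 8, and 11 to 19 among the 32 response genes against 17. Array weights gave 15846, 5 and 19 calls for all entries, members and wider genes. A covariate for each array's interquartile range, chosen after seeing the data, gave 12863, 4 and 14. An adjusted p under 0.01 gave 3184 calls over all entries and 3 among the wider genes. The members called numbered 2 with cyclic loess and 3 without both arrays numbered 3, a setting chosen after seeing the data. With the replicate number as a block they numbered 2 by sample titles and 4 by file names, and that block gave 8984 and 10493 calls over all entries; the arrays share only a number. The cause of these shifts was not tested. Other counts stayed within 1.5 times. Readings close to the random-sequence probes (Ptgs2 in differentiated cells, Ptger2, Ptger3 and Il6) limit what can be said of their size.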
